A study of Mus musculus with 6 samples.

Results

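The genes that make, move and break down γ-aminobutyric acid (GABA) were examined in pancreatic islets of Pax8 +/- and Wt mice. The 7 genes Abat, Gad1, Gad2, Aldh5a1, Slc6a6, Slc32a1 and Glul were chosen by gene symbol, with the levels on these arrays already known. Abat in particular was selected on its difference between these same groups, because the study lists it among its most increased islet transcripts. The differences of these genes are therefore given as a description, without a test. Probe sets were found for 6 of the 7 genes, 1 for each, among 22206 gene probe sets. Glul, which makes glutamine from glutamate and ammonia, had no named probe set in the annotation used here and is not analysed here.

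Islet RNA of 3 Pax8 +/- samples and 3 Wt samples, labelled Control, was hybridised to 6 Clariom S microarrays. In Pax8 +/- mice, 1 of the copies of Pax8 is disrupted in every cell. The gene encodes a transcription factor of thyroid follicular cells, and the mice are used as a model of mild hypothyroidism. The mice had a C57BL/6 background, and islets were picked by hand. The labels give no age, sex or fasting. By its methods and the legend of the array panels, the study used only males, killed here when 9 months old, and mice of that age had been fasted for 16 hours. How many mice gave the islets of an array is not stated. The p-values set the difference of the groups against the spread between samples within a group, moderated over all gene probe sets. That spread may therefore be technical in part. Levels are log2 values, and an array counted as above background where its level exceeded the 95th percentile of its own negative control probe sets, which was 7.60 to 7.97. Between 25.3% and 29.5% of gene probe sets on an array were above it.

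GABA is made from glutamate by the glutamate decarboxylases, which Gad1 and Gad2 encode, and islet beta cells are one of the few places outside the nervous system where it is abundant. It is broken down in mitochondria. Abat, the GABA transaminase, turns GABA into succinic semialdehyde, and Aldh5a1, succinic semialdehyde dehydrogenase, oxidises this to succinate, which enters the TCA cycle, so that the route is known as the GABA shunt. Slc6a6 is the taurine transporter, which also carries GABA across the plasma membrane, and Slc32a1 loads GABA and glycine into vesicles.

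The arrays fell only in part into genotypes. Pax8 +/- replicates 2 and 3 were each other's nearest array (r = 0.984 across gene probe sets, which are not independent replicates), and 4 of the 6 arrays, Pax8 +/- replicates 2 and 3 and Wt replicates 1 and 2, had a higher mean r with their own group than with the other. Pax8 +/- replicate 1 was most like Wt replicate 1 (r = 0.984), and Wt replicate 3 was most like Pax8 +/- replicate 2 (r = 0.983). Ins2 and Gcg, the insulin and glucagon genes, were at 19.88 to 19.93 on all 6 arrays, where the scale ends, and no difference can be read there. Pax8 itself was below background on all 6 arrays, at 4.73 ± 0.25 (SD, n = 3) in Pax8 +/- and 4.82 ± 0.21 (SD, n = 3) in Wt islets, and gives no check of the genotype labels.

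Abat was the one GABA gene with a large difference. Its log2 level was 8.91, 11.09 and 10.64 on Pax8 +/- replicates 1 to 3, against 7.05, 6.26 and 9.71 on Wt replicates 1 to 3. Pax8 +/- replicate 1 lay below Wt replicate 3, so that the groups overlapped, and the other Pax8 +/- arrays lay above every Wt array. Abat (Entrez Gene 268860) averaged 10.21 ± 1.15 (SD, n = 3) in Pax8 +/- and 7.67 ± 1.81 (SD, n = 3) in Wt islets, a log2 difference of 2.54 (standard error 0.89), which is 5.81-fold. With a Tukey biweight of each group in place of its mean, the log2 difference was 3.64. It was above background on all 3 Pax8 +/- arrays but on 1 of 3 Wt arrays, replicate 3, so that the size of the difference is not exact. The distance between Wt replicates 2 and 3 was larger than the difference of the group means.

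**Figure D1:**
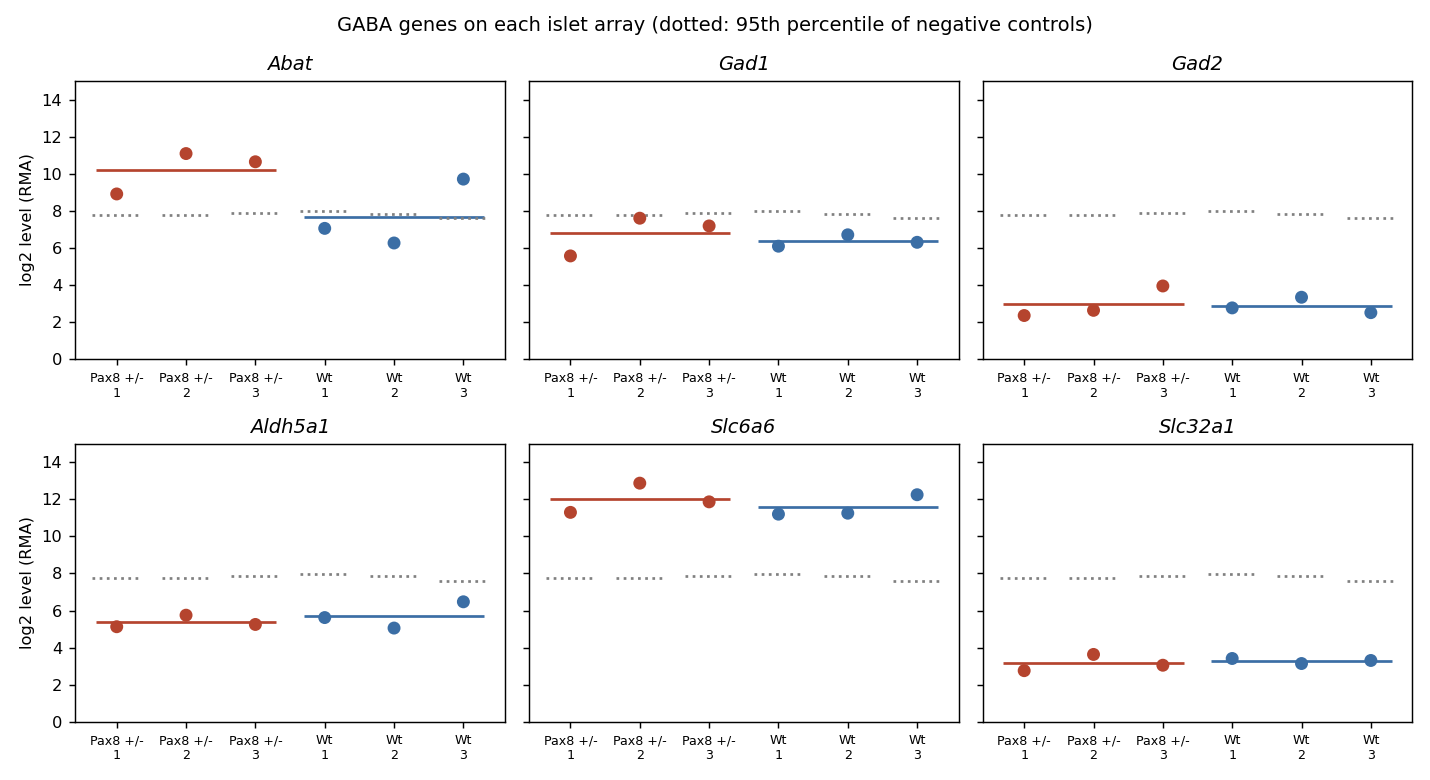
Log2 level (vertical axis) of the 6 measured GABA genes on each array, Pax8 +/- in red and Wt in blue, with a line at each group mean and a dotted mark at the 95th percentile of the negative controls of that array. Slc6a6 lies above the mark on all 6 arrays, Abat on 4, and the other 4 genes on none.

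Gad1 and Gad2, the genes of GABA synthesis, lay below background on all 6 arrays. Gad1 (Entrez Gene 14415), which encodes the larger glutamate decarboxylase, was at 5.56, 7.60 and 7.18 on Pax8 +/- replicates 1 to 3 and at 6.09, 6.70 and 6.30 on Wt replicates 1 to 3. Its highest and its lowest levels were both on Pax8 +/- arrays, and the Wt arrays lay between them. The log2 difference was 0.42 (standard error 0.50). Against the 90th percentile of the negative controls, Gad1 was above background on 2 arrays, Pax8 +/- replicates 2 and 3. Gad2 (Entrez Gene 14417), whose product is an autoantigen of type 1 diabetes in humans, was at 2.35, 2.63 and 3.94 on the Pax8 +/- arrays and at 2.76, 3.33 and 2.5 on the Wt arrays, a log2 difference of 0.11 (standard error 0.44). For neither gene can a difference be read from levels below background, and no fold change is given.

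Aldh5a1 (Entrez Gene 214579), which follows Abat in the shunt, was at 5.13, 5.75 and 5.25 on the Pax8 +/- arrays and at 5.62, 5.05 and 6.47 on the Wt arrays, below background on all 6. The groups overlapped, and the log2 difference was -0.34 (standard error 0.39), within the SD of 0.71 between Wt arrays. As for Gad1 and Gad2, no difference can be read at these levels.

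Of the transporters, Slc6a6 was the one GABA gene above background on all 6 arrays. Slc6a6 (Entrez Gene 21366) was at 11.30, 12.87 and 11.86 on Pax8 +/- replicates 1 to 3, against 11.20, 11.25 and 12.25 on Wt replicates 1 to 3. The highest level was that of Pax8 +/- replicate 2 and the next that of Wt replicate 3, so that the groups overlapped. The log2 difference of 0.44 (standard error 0.46) was smaller than the SD between arrays of either group, which was 0.80 in Pax8 +/- and 0.59 in Wt islets. Slc32a1 (Entrez Gene 22348) was at 2.76, 3.63 and 3.05 on the Pax8 +/- arrays and at 3.41, 3.14 and 3.31 on the Wt arrays, below background on all 6, with a log2 difference of -0.14 (standard error 0.29).

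Among the 6 measured genes, 1 (Abat) was past the study's cut-offs, a fold change of 2.5 or more with p no larger than 0.05 before adjustment, and it was higher in Pax8 +/- islets. Here these were applied to limma's p and to the fold of the group means, whereas the study used the Transcriptome Analysis Console with default settings, so that the calls need not be the same. Over all 22206 gene probe sets, 0.648% were higher and 0.351% lower by that rule (144 and 78), and 232 and 119 with the fold of Tukey biweights. As this contrast chose Abat, nothing is read from the count. The median log2 difference of the 6 genes was 0.26, against -0.01 over all gene probe sets. It covers Abat and 4 genes below background on all 6 arrays, so that nothing is read from it either. No GABA gene had groups that did not overlap, where 4.52% of all gene probe sets had every Pax8 +/- array above every Wt array and 5.14% had every one below. After Benjamini-Hochberg adjustment 0 probe sets (0%) had a limma p under 0.05, the smallest adjusted p being 0.745, while 1312 had an unadjusted p of at most 0.05. An ordinary linear model without moderation also called 0 after adjustment. The smallest p that an exact permutation test (2-sided) of a single gene allows for groups of 3 and 3 is 0.1.

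The order of the arrays for Abat was, from low to high, Wt replicate 2, Wt replicate 1, Pax8 +/- replicate 1, Wt replicate 3, Pax8 +/- replicate 3 and Pax8 +/- replicate 2. The mean level of 17 measured beta-cell markers had the same order but for Pax8 +/- replicate 1 and Wt replicate 1, which changed places, at 12.38, 14.59 and 14.58 on Pax8 +/- replicates 1 to 3 and at 12.50, 11.26 and 13.75 on Wt replicates 1 to 3. Of these 17 markers, Ins2 and Iapp sat at the end of the scale and Mafa was below background on all 6 arrays, so that no difference can be read for them. The other 14 all had a higher mean in Pax8 +/- islets, with a median log2 difference of 1.31. Nkx2-2, Ucn3, Glp1r, Ffar1 and Trpm5, 5 of the 17, had exactly the array order of Abat, as did 284 of 5715 named probe sets (4.97%) above background on at least 3 arrays. In whole islets, fewer cells of a type and less RNA per cell cannot be told apart.

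Markers of other cell types were looked at in the same way. The mean of 10 duct-cell markers was 11.85, 10.62 and 10.44 on Pax8 +/- replicates 1 to 3 and 11.34, 11.82 and 11.30 on Wt replicates 1 to 3, with 9 of 10 lower in mean in Pax8 +/- islets. That of 11 endothelial markers was 8.29, 7.68 and 7.73, against 8.33, 8.57 and 7.84, with 9 of 11 lower. These counts include 2 duct-cell and 5 endothelial markers below background on every array, for which no direction can be read. Of the endothelial markers above background, Emcn and Plvap were higher in Pax8 +/- islets, with log2 differences of 1.06 and 0.59. Acinar markers (18 measured) were at 16.88 to 17.21 on Pax8 +/- and 17.14 to 17.34 on Wt arrays, and 7 of them sat at the end of the scale. The mean of 9 alpha-cell markers was 9.23 to 10.07 on Pax8 +/- and 8.96 to 9.83 on Wt arrays, and that of 6 delta-cell markers was 8.36 to 10.11 over all arrays. Schwann-cell and neural markers, which matter because neurons also use GABA, were at 4.45 to 4.95 on Pax8 +/- and 4.75 to 4.99 on Wt arrays, with 6 of the 8 below background on every array. Of 11 stellate and mesenchymal markers 9 were below background on every array, as were 9 of 11 macrophage markers. The mean of 3 markers of pancreatic polypeptide and epsilon cells was 13.88 to 14.92 on Pax8 +/- and 12.98 to 15.05 on Wt arrays. Of these, 2 were higher in mean in Pax8 +/- islets, and Ghrl, which was lower, was below background on every array. The part of the marker differences in the level of Abat was not tested.

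**Figure D2:**
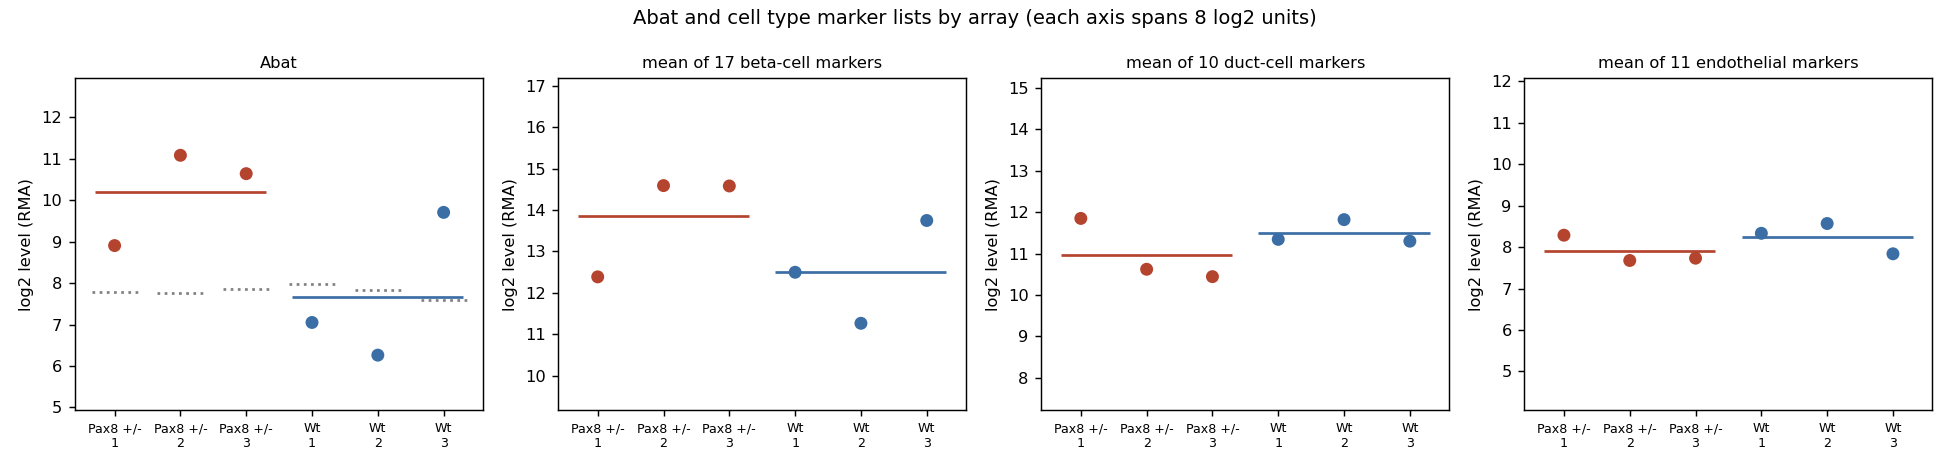
Log2 level of Abat and mean log2 level of 3 cell type marker lists (vertical axes, each spanning 8 log2 units) on each array, Pax8 +/- in red and Wt in blue, with a line at each group mean and, for Abat, dotted background marks. Abat and the 17 beta-cell markers are both lowest on Wt replicate 2 and highest on Pax8 +/- replicates 2 and 3, and the duct-cell and endothelial lists are lowest on those Pax8 +/- arrays.

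The genes whose levels were most like those of Abat over the 6 arrays, by Pearson's r, were Pqbp1 (r = 0.998), Pom121 (r = 0.996) and Hexa (r = 0.996), a lysosomal hexosaminidase subunit. Of the 5714 other named probe sets above background on at least 3 arrays, 307 (5.37%) had an r over 0.95, so that the pattern was a common one. Hexa was at 12.28, 13.12 and 13.03 on the Pax8 +/- arrays and at 11.51, 11.36 and 12.70 on the Wt arrays, a log2 difference of 0.95, and those of Pqbp1 and Pom121 were 1.04 and 0.98. Nearest to Slc6a6 were Mavs (r = 0.996), Mms19 (r = 0.994) and Smim14 (r = 0.993), with log2 differences of 0.30, 0.38 and 0.15, and 81 probe sets (1.42%) had an r over 0.95 with it. These correlations are over 6 arrays and describe likeness of level alone.

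Around these genes, 8 lists of GABA-related genes were compared in the same limma fit. Of 91 listed genes 81 were measured, and with the fold of group means none was past the thresholds of the study, where 0.648% of all gene probe sets were higher and 0.351% lower. At an unadjusted p of at most 0.05, 2 of the 81 were higher and 3 lower in Pax8 +/- islets, against 3.14% and 2.77% of all gene probe sets, and the median log2 difference was 0.00. These values include 46 genes below background on every array, for which no difference can be read, and 27 were above it on all 6. The groups did not overlap for 2 of the 81 that were higher and 4 that were lower, against 4.52% and 5.14% of all gene probe sets. All adjusted p-values from limma were at least 0.745. With the fold of Tukey biweights 1 gene, Odc1, was past the thresholds and lower in Pax8 +/- islets, at -2.11.

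Receptors of GABA were mostly out of reach of these arrays. All 16 measured subunits of the GABA-A receptor, the ligand-gated chloride channel, lay below background on every array, at 1.93 to 7.49, with log2 differences of -0.60 to 0.37 and a median of -0.12. The 4 with the smallest p were Gabrr3 (0.37), Gabrq (-0.37), Gabra3 (-0.47) and Gabrr1 (-0.38). The GABA-B receptor, which couples to G proteins, needs both of its subunits. Gabbr2 was above background on all arrays, at 12.96, 13.65 and 13.14 on Pax8 +/- replicates 1 to 3 and at 13.04, 11.15 and 14.11 on Wt replicates 1 to 3. Its highest and lowest levels were both on Wt arrays, and the log2 difference of 0.48 (standard error 0.66) turned to -0.32 without Wt replicate 2. Gabbr1, the other subunit, was below background on all 6 arrays, at 6.95 to 7.39 on Pax8 +/- and 6.73 to 7.37 on Wt arrays. Of the auxiliary KCTD proteins of that receptor, Kctd12b and Kctd8 were below background on all 6 arrays with log2 differences of 0.67 and 0.31, and that of Kctd16, above it on 5, was -0.32.

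The enzymes that receive the carbon of the shunt, or act beside it, included 3 of 17 genes at an unadjusted p of at most 0.05, against 5.91% of all gene probe sets. Dld, the shared lipoamide dehydrogenase of the mitochondrial 2-oxoacid complexes, was at 11.62, 10.93 and 10.81 on Pax8 +/- replicates 1 to 3 and at 11.74, 11.92 and 11.76 on Wt replicates 1 to 3. The groups did not overlap, all arrays were above background, and the log2 difference was -0.69 (standard error 0.29, unadjusted p = 0.0425, adjusted p = 0.745 from limma). Sdhc, a membrane subunit of succinate dehydrogenase, was at 8.19, 9.26 and 9.70 in Pax8 +/- and 7.98, 7.10 and 8.47 in Wt islets, overlapping, with a log2 difference of 1.20 (standard error 0.47, unadjusted p = 0.034, adjusted p = 0.745 from limma). Its level on Wt replicate 2 was below background. The other succinate dehydrogenase subunits, Sdha, Sdhb and Sdhd, named after their values were seen, differed by 0.32, 0.22 and 0.34, with unadjusted limma p-values of 0.334 to 0.475.

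Enzymes of polyamines and amines, from which cells can also make GABA, belonged to the same list. Odc1, ornithine decarboxylase, was at 12.76, 11.21 and 11.12 on Pax8 +/- replicates 1 to 3, against 13.24, 13.32 and 12.08 on Wt replicates 1 to 3, a log2 difference of -1.19 (standard error 0.51, unadjusted p = 0.0483, adjusted p = 0.745 from limma). Pax8 +/- replicate 1 lay within the Wt range. Maob, monoamine oxidase B, was at 10.18, 12.82 and 11.91 in Pax8 +/- and 10.15, 9.17 and 10.96 in Wt islets, a log2 difference of 1.54 (standard error 0.68, unadjusted p = 0.0524, adjusted p = 0.745 from limma). The arrays of Maob stood in the same order as those of Abat, which was also true of Ogdh, a 2-oxoglutarate dehydrogenase subunit named here after its values were seen. Of the 81 pathway genes, 5 (6.17%) had this order, all of them among the 27 above background on all 6 arrays. The share of named probe sets above background on at least 3 arrays was 4.97%. As 46 of the 81 were below background on every array, these shares are not over like sets, and nothing is read from them. Aldh9a1, the aldehyde dehydrogenase that completes this route, also named afterwards, differed by -0.22, and Maoa was below background on all 6 arrays.

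**Figure D3:**
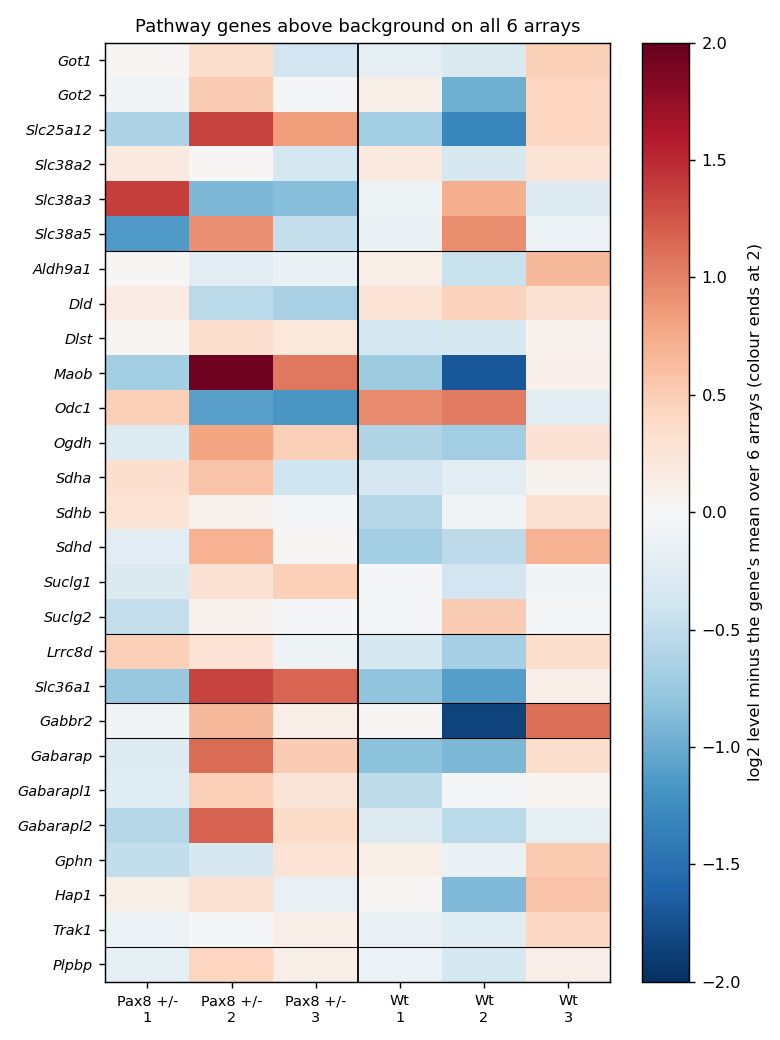
Log2 level of each of the 27 pathway genes above background on all 6 arrays, as the difference from the mean of that gene over the arrays (colour, ending at 2 log2 units either way), with Pax8 +/- arrays left of Wt arrays. Slc25a12, Maob, Ogdh, Slc36a1 and Gabarap are high on Pax8 +/- replicates 2 and 3 and low on Wt replicates 1 and 2, and Pax8 +/- replicate 1 is closer to these Wt arrays than to the other Pax8 +/- arrays. For these genes Wt replicate 3 lies above Pax8 +/- replicate 1 and the other Wt arrays, and below Pax8 +/- replicates 2 and 3.

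Glutamate is the substrate of GABA synthesis. Of 14 measured genes of glutamate and glutamine supply, none had an unadjusted p of at most 0.05. In Pax8 +/- islets 11 had a lower and 3 a higher mean, with a median log2 difference of -0.08, against -0.01 over all gene probe sets. As 6 of the 14 were below background on all arrays, no direction can be read for those. Slc25a12, a mitochondrial aspartate/glutamate carrier, was at 10.39, 12.35 and 11.83 on Pax8 +/- replicates 1 to 3 and at 10.31, 9.69 and 11.42 on Wt replicates 1 to 3, a log2 difference of 1.05 (standard error 0.58, unadjusted p = 0.109, adjusted p = 0.745 from limma), while its relative Slc25a13 was below background with -0.28. The glutamine carriers Slc38a5 and Slc38a1 differed by -0.46 (standard error 0.53) and -0.59 (standard error 0.68), and Slc38a1 was above background on only 2 arrays. Slc38a5 differed by -0.01 without Pax8 +/- replicate 1, and Slc38a1 by 0.15 without Wt replicate 2.

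Of 10 measured genes of GABA transport and release, none had an unadjusted p of at most 0.05, and 7 were below background on all arrays, among them the plasma membrane GABA transporters Slc6a11, Slc6a12 (0.44) and Slc6a13. Slc36a1, a lysosomal and plasma membrane carrier of small amino acids that also accepts GABA, was at 8.37, 10.48 and 10.28 on Pax8 +/- replicates 1 to 3 and at 8.34, 8.03 and 9.25 on Wt replicates 1 to 3. Its log2 difference was 1.17 (standard error 0.58, unadjusted p = 0.0754, adjusted p = 0.745 from limma). Volume-regulated anion channels, through which islet cells can release GABA, are built of LRRC8 subunits. Lrrc8d differed by 0.42, and Lrrc8c, below background on all 6 arrays, by -0.62 with groups that did not overlap. Lrrc8a, the subunit every such channel needs, was below background on all 6 arrays with a log2 difference of 0.00.

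Among 11 measured genes that hold or carry GABA receptors, Nlgn2, the adhesion protein of inhibitory synapses, had the smallest p of the pathway. Its log2 level was 7.03, 6.97 and 7.68 on Pax8 +/- replicates 1 to 3, against 6.04, 5.91 and 6.32 on Wt replicates 1 to 3, so that the groups did not overlap. The log2 difference was 1.14 (standard error 0.29, unadjusted p = 0.00386, adjusted p = 0.745 from limma), but all 6 levels were below background, and no fold change is given. Gabarap, which takes part in receptor trafficking and in autophagy, was at 14.53, 15.89 and 15.29 in Pax8 +/- and 13.96, 13.88 and 15.13 in Wt islets, a log2 difference of 0.91 (standard error 0.45, unadjusted p = 0.0768, adjusted p = 0.745 from limma). Its relative Gabarapl2 differed by 0.65 and the scaffold gene Gphn by -0.35.

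Taurine shares the transporter Slc6a6 with GABA. All 5 measured genes of taurine synthesis were below background on all 6 arrays, so that no difference can be read for them. Ado, cysteamine dioxygenase, had groups that did not overlap, with 4.14, 4.50 and 3.70 in Pax8 +/- and 5.09, 4.76 and 4.72 in Wt islets (log2 difference -0.75, unadjusted p = 0.031, adjusted p = 0.745 from limma), and so did Csad, with 6.12, 6.41 and 6.87 in Pax8 +/- and 6.01, 5.99 and 5.81 in Wt islets (0.53). Cdo1 and Gadl1 differed by -0.39 and 0.30. Pyridoxal phosphate is the cofactor of Abat and of both glutamate decarboxylases. Of the genes that handle it, Plpbp was above background on all arrays with a log2 difference of 0.23 and Pdxk on 2 arrays with 0.22. Pdxp, a phosphatase that removes this cofactor, was above background on none, with -0.46.

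**Figure D4:**
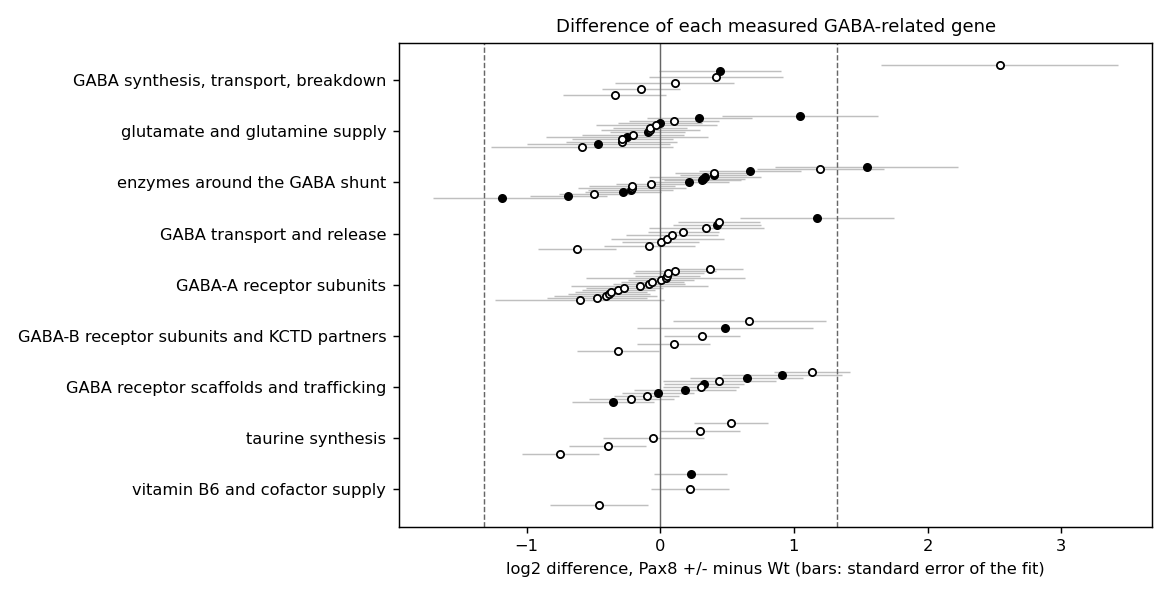
Log2 difference of each measured gene, Pax8 +/- minus Wt (horizontal axis), with its standard error from limma, by list. Filled points are genes above background on all 6 arrays, and dashed lines mark a fold change of 2.5. Abat at 2.54 and Maob at 1.54 lie outside the lines, Maob with an unadjusted p of 0.0524.

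The overlap of the genotypes seen for Abat was general. Of the 27 pathway genes above background on all 6 arrays, 19 (70.4%) had Pax8 +/- replicate 1 inside the span of the Wt arrays and 17 (63%) had Wt replicate 3 inside that of the Pax8 +/- arrays. Over the 4812 gene probe sets above background on all arrays, the shares were 63.5% and 66.7%.

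Single arrays changed the size of the difference of Abat. It was 3.19 without Pax8 +/- replicate 1 and 3.56 without Wt replicate 3, and 2.10, 2.32, 2.23 and 1.83 without Pax8 +/- replicates 2 and 3 and Wt replicates 1 and 2, where Abat was no longer past the thresholds of the study. Slc6a6 ranged from 0.01 without Pax8 +/- replicate 2 to 0.80 without Pax8 +/- replicate 1, and Gad1 from 0.01 to 1.03 without the same arrays. Without Pax8 +/- replicate 1, Slc25a12 (1.62), Sdhc (1.63), Maob (2.27), Odc1 (-1.72), Slc36a1 (1.84) and Kctd12b (1.33) passed the thresholds, and without Wt replicate 3 so did the first 5 of these, at 1.52, 1.51, 1.98, -1.58 and 1.53. Without each of the other arrays none of the 81 genes did. Dld had an unadjusted p over 0.05 in 5 of the 6 leave-outs, the exception being that without Pax8 +/- replicate 1, with log2 differences of -0.94 to -0.53, while Nlgn2 kept an unadjusted p of at most 0.0159 in all 6, with 0.91 to 1.26.

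**Figure D5:**
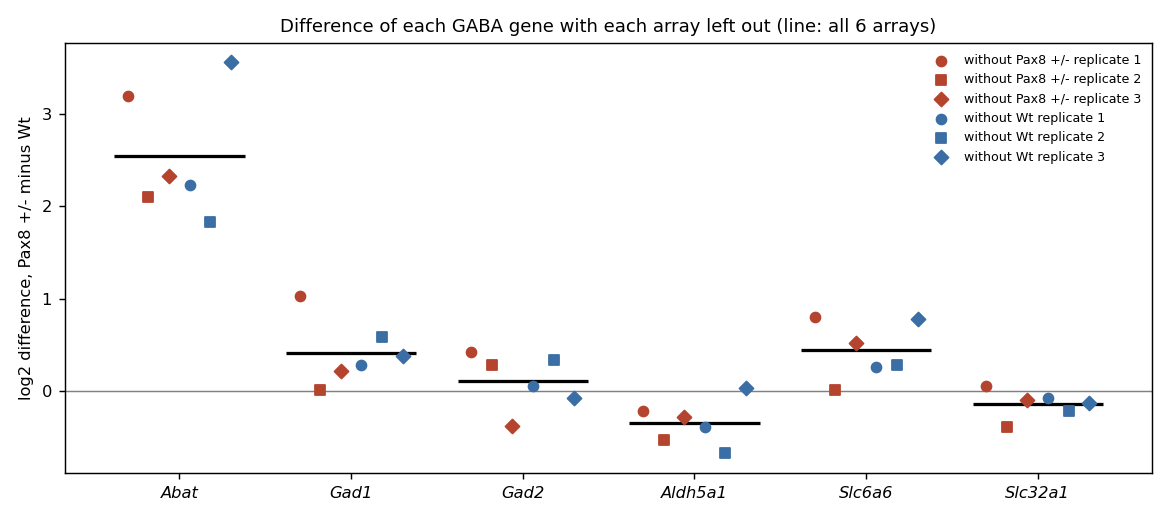
Log2 difference, Pax8 +/- minus Wt (vertical axis), of the 6 measured GABA genes with all arrays (line) and with each array left out (points, red where a Pax8 +/- and blue where a Wt array is left out). Abat stays between 1.83 and 3.56, and the other 5 genes lie between -0.67 and 1.03.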

How the data were processed

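The deposited table holds log2 levels (28846 probe sets by 6 arrays) that the authors made with RMA and the Transcriptome Analysis Console according to the submitters' processing notes, which give no version. RMA corrects background and normalizes arrays against each other, so that levels are relative to the array set and do not compare between probe sets. No source used here names a genome build, and no position is printed. The 5222 negative and 1418 other control probe sets were kept out of the tests. Gene symbols came from the platform annotation, updated through a RefSeq table (19572 probe sets with 1 symbol, 2634 unnamed here). With several probe sets the brightest was used.

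Groups were compared with limma 3.58.1 in R 4.3.3 (lmFit, eBayes, 2-sided, no covariate, all 22206 gene probe sets, no filter, Benjamini-Hochberg adjustment). Standard errors are moderated ones. The code was tested on simulated data. The number of arrays limits the precision.

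The GABA genes and all lists were chosen by role, with earlier results of these data known. The GABA genes are given in full. Named beside them are up to 4 genes per pathway list with the smallest p, any past the thresholds, and the 3 genes most correlated with each GABA gene above background on at least 3 arrays. Alternatives were no moderation, array weights, a robust fit with an intensity trend, a Tukey biweight, quantile normalization, a common median, filters on dim probe sets, a block for the replicate number, a fold change of 2, other background percentiles, and each array left out. No GABA gene had several probe sets, so that using all of them changed nothing.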

Additional observations from a re-analysis of the deposited data

How the results depend on the processing

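Abat was past the thresholds of the study under every alternative with all 6 arrays except the fit without moderation, where 0 of the 6 GABA genes were. With each array left out, between 0 and 1 were. Over all gene probe sets, 144 were higher and 78 lower as reported. The counts were 19 and 16 without moderation, 494 and 306 with array weights, 43 and 20 with probe sets above background on at least 3 arrays, 232 and 119 with a Tukey biweight, and 332 and 186 at a fold change of 2. They ran from 24 to 740 higher and from 17 to 597 lower with each array left out, with 0 to 29 at an adjusted p under 0.05, the 29 without Pax8 +/- replicate 1. The labels do not say whether samples with the same replicate number were paired. Deviations from the group means correlated at 0.0036, -0.42 and 0.14 for replicates 1, 2 and 3. With 3 arrays per group these values cannot settle it. With the replicate block the counts were 203 and 145, and 1 pathway gene, Maob, passed. Of the 81 pathway genes, 1 passed with an intensity trend, 5 with array weights, 1 with a Tukey biweight, 3 at a fold change of 2, and 0 to 6 with each array left out. Among the GABA genes below background, the difference of Gad2 ran from -0.38 to 0.42, of Aldh5a1 from -0.67 to 0.04 and of Slc32a1 from -0.38 to 0.05 with each array left out, so that each changed sign, and Gad2 was at -0.31 with a Tukey biweight. Directions also turned without Wt replicate 2 for Slc38a1 (0.15, range with each array left out -1.13 to 0.15), Gabbr2 (-0.32, range -0.32 to 1.16) and Pax8 (0.031, range -0.23 to 0.031), and without Pax8 +/- replicate 2 for Smim14 (-0.032, range -0.032 to 0.31). At the 99th percentile of the negative controls Abat was above background on 0 arrays and Slc6a6 on 2, and at the 90th on 5 and 6. The cause of these changes was not tested.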
